A study of Mus musculus with 8 samples.

Results

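The 49 mitosis genes described here code for proteins that take a cell into mitosis, build the spindle, attach chromosomes to it and split the cell. They were chosen as a list of gene symbols out of the 25237 named rows of the table, and all 49 were present, 48 under the listed symbol and Sgol1 under its current symbol Sgo1. RNA was measured by sequencing in muscle stem cells, the resident stem cells of skeletal muscle, in 4 libraries from mice treated with ketone bodies and 4 libraries from mice given PBS. All mice were wild-type males of 2 to 4 months, and the cells of both groups were sorted from hindlimb muscle as VCAM1+/CD31-/CD45-/Sca1-. The label for strain reads C57BL/7, C57BL/8, C57BL/9 and C57BL/9 in ketone libraries 1 to 4 and C57BL/6 throughout the PBS group. The ketone entries count up from library to library and may be a slip in filling the label sheet. If they were real, strain could not be told apart from treatment. The labels give no dose, route or time of the ketone treatment and do not say whether each library is 1 mouse, so each p-value rests on the spread from library to library, which may be technical.

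In a dividing cell, cyclins A and B switch on the kinase Cdk1, the Aurora and Polo-like kinases mature the spindle poles, and kinetochores built on centromeres bind spindle microtubules. The spindle checkpoint holds the anaphase-promoting complex in check until every chromosome is attached. Sister chromatids then separate, and a ring of contractile proteins at the central spindle divides the cytoplasm. Many of these genes are transcribed late in the cell cycle, through promoters that carry a CHR element (cell cycle genes homology region) and CCAAT boxes, bound by MuvB complexes with B-Myb and FoxM1 and by NF-Y. Muscle stem cells in resting muscle are mostly quiescent and enter the cycle after injury.

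Shown are promoters of 5 genes that fell in ketone libraries, Ect2, Kntc1, Top2a, Mki67 and Cdk1. Beside them is Kif11, which did not pass the test, because promoters of both kinds of gene carry these elements. A gene was shown only if a CHR and a CCAAT box both lay within the 150 bases, almost wholly outside the annotated gene. The elements in these lines were thus set by the choice and do not describe the other genes that fell. Each line is the 150 bases before the RefSeq start (GRCm38.p6), written 5′ to 3′ on the strand of the gene, with CHR (TTTGAA or its complement TTCAAA) and CCAAT (or ATTGG) in capitals. The windows are chr3:27153879-27154028 on the minus strand for Ect2, chr5:123749576-123749725 on the plus strand for Kntc1, chr11:99024190-99024339 on the minus strand for Top2a, chr7:135716380-135716529 on the minus strand for Mki67, chr10:69352913-69353062 on the minus strand for Cdk1 and chr19:37376232-37376381 on the plus strand for Kif11. In Kntc1 the CCAAT box and the CHR share bases. The last 10 bases of the Kntc1 line and the last 26 of the Cdk1 line lie inside the gene as annotated by GENCODE. The CHR of Kntc1 and the last CHR of Cdk1 are among these bases.
Ect2: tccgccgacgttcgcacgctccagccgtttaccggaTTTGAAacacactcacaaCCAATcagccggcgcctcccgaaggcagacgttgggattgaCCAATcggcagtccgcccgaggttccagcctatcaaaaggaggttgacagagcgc
Kntc1: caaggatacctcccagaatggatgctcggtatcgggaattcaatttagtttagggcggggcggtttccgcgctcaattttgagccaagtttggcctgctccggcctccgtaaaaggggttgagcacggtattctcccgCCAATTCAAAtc
Top2a: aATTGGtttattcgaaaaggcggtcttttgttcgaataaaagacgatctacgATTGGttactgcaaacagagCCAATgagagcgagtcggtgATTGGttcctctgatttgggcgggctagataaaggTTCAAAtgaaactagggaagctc
Mki67: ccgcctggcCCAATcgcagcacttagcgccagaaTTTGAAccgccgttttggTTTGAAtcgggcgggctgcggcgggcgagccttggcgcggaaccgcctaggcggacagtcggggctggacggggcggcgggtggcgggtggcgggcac
Cdk1: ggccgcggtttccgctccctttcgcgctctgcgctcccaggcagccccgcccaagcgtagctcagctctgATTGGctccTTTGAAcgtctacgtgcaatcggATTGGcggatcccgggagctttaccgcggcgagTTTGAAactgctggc
Kif11: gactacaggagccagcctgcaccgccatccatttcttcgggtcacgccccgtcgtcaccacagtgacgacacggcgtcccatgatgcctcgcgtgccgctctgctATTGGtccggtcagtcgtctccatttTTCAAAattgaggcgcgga

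Over windows from 250 bases before to 50 bases after the start, RefSeq gave 44 windows for 41 of the 49 genes. Ccna2, Cdc25c, Aurkb, Kif20a, Tpx2, Foxm1, Pbk and Smc4 are named only. A CHR on either strand lay in 33 of 44 windows (75%), against 12.1% of the 14017 windows of all genes tested and 17.9% of all 32851 windows. CCAAT lay in 75% of the windows of the mitosis genes, against 37.5% of the windows of genes tested, and both elements lay in 63.6%, against 4.83%. Among the mitosis genes the shares with a CHR were 73.7% of 19 windows of genes that fell and 79.2% of 24 windows of genes that did not pass the test. At least 2 CCAAT boxes lay in 12 of the 19 windows of those that fell (63.2%) and in 8 of the 24 of those that did not pass (33.3%). These windows belong to 18 and 22 genes, so a few genes set the difference. Of the windows of all genes lower in ketone libraries, 11.7% held a CHR and 4.79% held both elements. These are matches of letters within a window and say nothing of whether a factor binds.

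**Figure D1:**
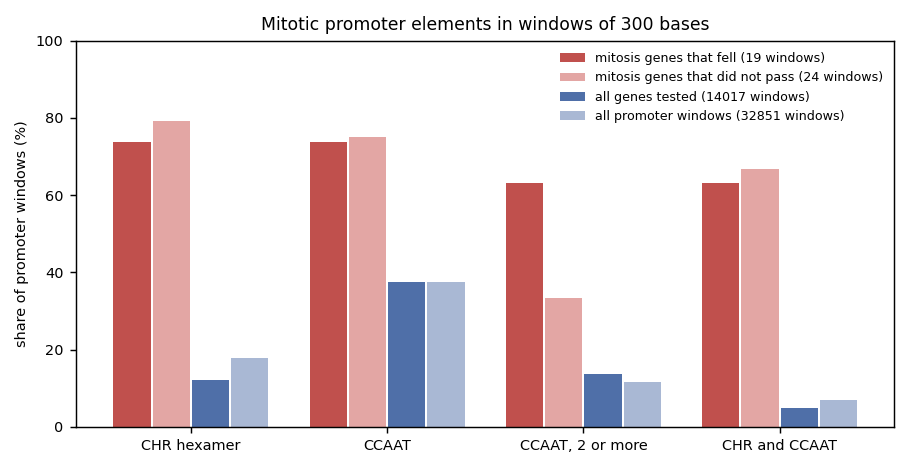
Share of promoter windows (percent, y axis; 250 bases before to 50 after the RefSeq start) that hold a CHR, a CCAAT box, 2 or more CCAAT boxes, or a CHR and a CCAAT box, for mitosis genes that fell in ketone libraries, mitosis genes that did not pass the test, all genes tested and all windows. A CHR lies in 73.7% and 79.2% of the windows of the mitosis genes, and in 12.1% of the windows of genes tested.

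The deposited values are read counts divided by 1 factor per library and are called normalised counts below. Here 1 read was worth 0.638 to 1.39 of them. Depth was 25465671 to 36870537 reads in ketone libraries and 19174005 to 29689632 in PBS libraries (exact two-sided permutation test, p = 0.486). Pax7, the defining factor of muscle stem cells, averaged 1792 ± 215 normalised counts in ketone libraries and 2125 ± 301 in PBS libraries (SD, n = 4 each; adjusted p = 0.265). Vcam1, the positive sort marker, averaged 24880 ± 10765 in ketone and 42043 ± 3281 in PBS libraries (adjusted p = 0.0206). Of the 3 markers sorted against, 2 were higher in ketone libraries. Pecam1 (CD31) averaged 4233 ± 1506 in ketone and 733 ± 118 in PBS libraries (adjusted p = 1.68e-05). Ly6a (Sca1) averaged 4907 ± 1742 in ketone and 535 ± 29.7 in PBS libraries (adjusted p = 3.28e-06). Ptprc (CD45; adjusted p = 0.217) reached 299 in ketone library 1, with 21.1 to 30.1 in ketone libraries 2 to 4 and 16.1 to 28.4 in PBS libraries. All 17 endothelial markers were higher, with a summed level of 36645 to 86903 in ketone and 9988 to 12391 in PBS libraries. So were 7 of 16 tested blood markers (sum 1389 to 9053 in ketone, 798 to 1123 in PBS), 7 of 9 Schwann cell markers (16972 to 22254 in ketone, 14412 to 15355 in PBS) and 9 of 14 myofiber markers (1 other was lower; 4566 to 29552 in ketone, 6785 to 10043 in PBS). Of 12 muscle stem cell markers 6 were lower and 1 was higher (261274 to 379258 in ketone, 383710 to 408170 in PBS). Of 12 fibro-adipogenic markers 3 were lower and 4 higher (65990 to 120097 in ketone, 113573 to 160708 in PBS). Of 10 smooth muscle and pericyte markers 2 were lower and 6 higher (23607 to 36288 in ketone, 36204 to 39370 in PBS). No marker of these lists was at 0 across a whole group. The part of these markers in the results below was not tested. Ketone libraries 1 and 2 also stood apart in the ribosomal RNA row Rn45s (363069 and 396262, against 62561 and 60108 in ketone libraries 3 and 4 and 79005 to 118863 in PBS libraries). They stood apart too in Lars2 (466606 and 578264, against 85816 and 89958 in ketone libraries 3 and 4 and 76178 to 91364 in PBS libraries). The main count is given with and without them.

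Many, though not most, of the 49 mitosis genes were lower in ketone libraries, and none was higher by the test. The 6 roles ran from 1 of 7 tested genes that fell, among spindle motors and microtubule-binding proteins, to 5 of 7 in the central spindle and cytokinesis. Of the 49 genes, 47 had the mean of 10 normalised counts over the 8 libraries needed for testing. Of these 47, 22 fell (limma, adjusted p below 0.05), 0 rose and 25 did not pass. That is 44.9% of the 49, against 12.8% of all 14022 genes tested called lower and 12.8% called higher. The counts by role below stand beside this same 12.8% called lower. The list was chosen with earlier results of these data known, so these shares describe it and are no test of it. Without ketone libraries 1 and 2 the number that fell was 25, and the share of all genes tested that were lower was then 17.4%. The 2 genes under the filter were Cdc25c and Troap. The filter took the mean over both groups, so Bub1, Melk and Iqgap3, without a ketone read, passed it through the PBS libraries alone. So did other genes with a ketone mean under 10, among them Nuf2 (1.21), Aurkb (2.05) and Kntc1 (2.49). With no filter, 20 of the mitosis genes fell. The median change was -1.54 on the log2 scale over the 47, also with the genes without a ketone read set at their bound, against -0.01 over all genes tested, and 44 of the 47 changes were below 0, against 7135 of 14022. In 19 of the 49 genes (38.8%) every ketone library lay below every PBS library, against 14.1% of genes tested, and in 0 of 49 every ketone library lay above. In these bulk samples, fewer cells in the cycle, less RNA per cell and a difference in the mix of cell types cannot be told apart.

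These are low messages. PBS means of the 22 genes that fell ran from 36.7 to 252 normalised counts, and 20 of the 49 genes were at 0 in at least 1 ketone library, against 1 (Knl1, in PBS library 3) at 0 in any PBS library. Bub1, Melk, Iqgap3 and Troap had no read in any ketone library. Where the mean over the 8 libraries was at least 50, 9 of 22 genes fell, with a median of -1.08 on the log2 scale. Below that mean, 13 of 25 tested genes fell and the median was -2.36. Fitted log2 changes of low genes depend on the 1 added to each value before taking logs.

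**Figure D2:**
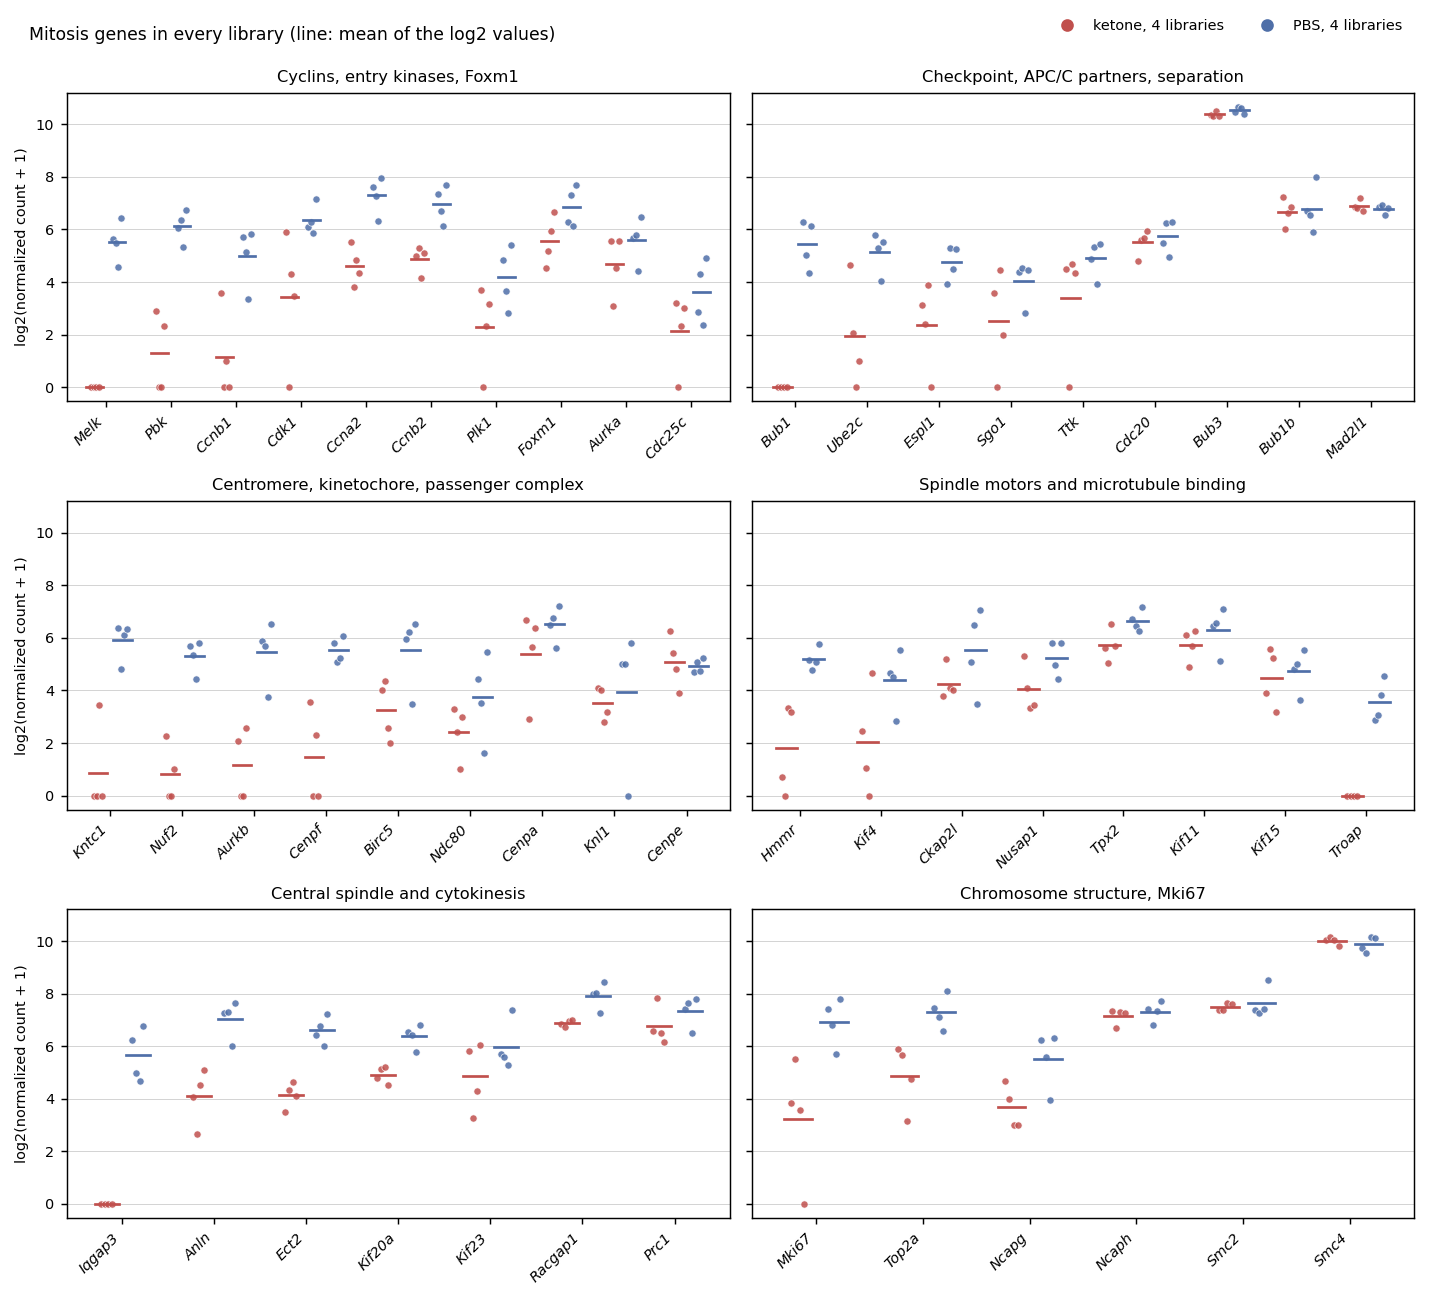
Level of each of the 49 mitosis genes in every library (y axis, log2 of the normalised count plus 1), 1 panel per role, ketone libraries as red points on the left and PBS libraries as blue points on the right of each gene; the line is the mean of the 4 log2 values. The 4 genes with all red points at 0 are Melk, Bub1, Troap and Iqgap3, and Bub3 and Smc4 lie highest, with overlapping groups.

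The genes for mitotic entry had the lowest median change of the 6 roles, -2.68 on the log2 scale, and 6 of 9 tested fell. Ccna2, cyclin A2 (chromosome 3, 36564865 to 36572150, minus strand), stood at 45.3, 12.9, 27.9 and 19.1 normalised counts in ketone libraries 1 to 4, against 194, 155, 80.03 and 250.5 in PBS libraries 1 to 4. Every ketone library was below the lowest PBS library, and the change was -2.68 ± 0.44 (log2, SE; adjusted p = 0.000675). Cyclin B2 (Ccnb2) showed the same separation, with 30.6, 38.6, 16.9 and 33.1 in ketone libraries and 160.4, 103, 68.7 and 205 in PBS libraries (-2.07 ± 0.41; adjusted p = 0.00217). For cyclin B1 (Ccnb1, chromosome 13, 100778650 to 100786570, minus strand) the values were 10.8, 0, 0.996 and 0 in ketone libraries, 18 reads in all, against 51.1, 34.7, 9.23 and 55.7 in PBS libraries, 139 reads. Ketone library 1 lay above PBS library 3, so the groups overlapped. The change was -3.87 ± 0.98 (adjusted p = 0.0107), -4.68 without ketone library 1. Its adjusted p was 0.0573 without PBS library 1 and 0.055 without PBS library 4. Cdk1, the kinase that both cyclin types activate (chromosome 10, 69335146 to 69352938, minus strand), had 58.7, 0, 18.9 and 10.03 in ketone libraries and 68.1, 76.7, 57.5 and 141 in PBS libraries. Its ketone libraries spanned from 0 to a value inside the PBS range, and the change of -2.93 ± 0.93 (adjusted p = 0.0331) was -3.76 without ketone library 1 and -1.79 without ketone library 2. Cdk1 missed the threshold without ketone library 4 (adjusted p = 0.0637), without PBS library 1 (0.0669), 2 (0.0792), 3 (0.0603) or 4 (0.0993), with no filter (0.0618), and in edgeR on the recovered reads (0.0961).

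Melk, a kinase that is high in mitotic cells (chromosome 4, 44300876 to 44364675, plus strand), had no read in the ketone libraries, against 48.4, 44.1, 22.6 and 84.9 normalised counts in PBS libraries, 179 reads in all. With 3 reads per library as the most that a count of 0 allows, its ketone level was at least 18.0-fold lower than its PBS mean of 49.98 ± 25.9 (SD, n = 4; adjusted p = 0.000338). Pbk, a mitotic kinase of the same late class, stood at 6.38, 0, 0 and 4.01 in ketone libraries and 66.3, 80.9, 39 and 107 in PBS libraries, 14 against 266 reads (-4.82 ± 0.79; adjusted p = 0.000616). Both genes separated the groups completely. Foxm1, the transcription factor of many late cell cycle genes, had 22.3, 35.4, 59.7 and 100.3 in ketone libraries and 77.1, 158, 69.8 and 205 in PBS libraries. Its groups overlapped, its change was -1.28 (95% interval -2.30 to -0.25) and it did not pass (adjusted p = 0.0641; 0.0267 without ketone library 4, 0.0447 in DESeq2 and 0.0326 with quantile normalisation). The other kinases of entry did not pass either. The Polo-like kinase Plk1 averaged 6.03 ± 5.22 in ketone and 21.8 ± 16.2 in PBS libraries (adjusted p = 0.16). Aurka, the Aurora kinase of the spindle poles, averaged 30.4 ± 19 in ketone and 53.2 ± 27.5 in PBS libraries (adjusted p = 0.288). Cdc25c, a phosphatase that activates Cdk1, averaged 4.82 ± 3.69 in ketone and 14.6 ± 11.7 in PBS libraries and was below the filter.

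Among genes of the spindle checkpoint, the partners of the anaphase-promoting complex and sister separation, 2 of 9 fell (median of the role -1.52). Bub1, the checkpoint kinase at the kinetochore (chromosome 2, 127801122 to 127831865, minus strand), had no read in ketone libraries, against 77.1, 31.5, 19.5 and 69.6 normalised counts in PBS libraries, 185 reads. That is at least 17.8-fold lower at the floor of 3 reads per library (adjusted p = 0.000483). The E2 enzyme of the anaphase-promoting complex, Ube2c, stood at 24.2, 3.22, 0 and 1 in ketone libraries and 54.7, 37.8, 15.4 and 44.5 in PBS libraries, and ketone library 1 lay inside the PBS range. Its change was -3.22 ± 0.93 (adjusted p = 0.0217), -4.13 without ketone library 1 and -2.58 without ketone library 3. It missed the threshold without PBS library 1 (0.0838), 2 (0.0648) or 4 (0.0713) and in edgeR (0.0975). Its exons share 592 bases with the muscle gene Tnnc2 on the other strand, and Tnnc2 had 2662 normalised counts in ketone library 1, against 226 to 307 in the other ketone libraries and 50.4 to 118 in PBS libraries. The sources used here do not say whether reads were counted by strand.

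No other gene of this role passed, and their intervals ranged from narrow to wide. Bub3, which carries Bub1 and BubR1 to kinetochores, stood at 1319, 1291, 1456 and 1270.5 in ketone libraries and 1431, 1627, 1574 and 1359 in PBS libraries, with a 95% interval of the log2 change of -0.46 to 0.13. Its groups overlapped (adjusted p = 0.407). For Mad2l1, the checkpoint protein Mad2, the interval was -0.41 to 0.64, with means of 119.6 ± 18.6 in ketone and 109.8 ± 11.5 in PBS libraries. BubR1 (Bub1b) averaged 105 ± 35.5 in ketone and 127 ± 86.4 in PBS libraries (interval -0.99 to 0.77). The activator Cdc20 averaged 46.5 ± 14.4 in ketone and 56.4 ± 23.4 in PBS libraries (interval -1.13 to 0.66). The 3 genes of low level had wide intervals. The checkpoint kinase Ttk averaged 16.4 ± 11.2 in ketone and 31.3 ± 12.8 in PBS libraries, shugoshin (Sgo1) 8.69 ± 9.34 in ketone and 17.2 ± 7.42 in PBS libraries, and separase (Espl1) 6.47 ± 5.88 in ketone and 27.8 ± 11.8 in PBS libraries. Separase, which cuts cohesin, had 7.66, 4.29, 13.9 and 0 in ketone libraries and 14.3, 37.8, 21.5 and 37.6 in PBS libraries. Its groups did not overlap, and its change of -2.39 ± 0.85 did not pass (adjusted p = 0.0538). It passed in 7 of 20 alternative fits, among them those without ketone library 1 (0.0437), without ketone library 3 (0.0279) and in DESeq2 (0.0441).

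At centromere and kinetochore 5 of 9 genes fell, with a median of -2.31 for the role. Kntc1, part of the outer kinetochore complex that brings dynein and the checkpoint proteins (chromosome 5, 123749716 to 123821593, plus strand), was at 0 in 3 ketone libraries and at 9.96 normalised counts in ketone library 3, against 81.5, 27.3, 67.7 and 80.7 in PBS libraries. It had 10 reads in all ketone libraries and 241 in PBS libraries, and its change was -5.05 ± 0.89 (adjusted p = 0.00108), -5.91 without ketone library 3. Nuf2, a subunit of the microtubule-binding Ndc80 complex (chromosome 1, 169497934 to 169531464, minus strand), had 3.83, 0, 0 and 1 in ketone libraries and 50.2, 39.9, 20.5 and 54.3 in PBS libraries, 7 against 153 reads (-4.49 ± 0.83; adjusted p = 0.00145). Aurkb, the kinase of the chromosomal passenger complex that corrects faulty attachments (chromosome 11, 69045647 to 69051664, plus strand), stood at 3.19, 0, 0 and 5.01 in ketone libraries and 57.3, 50.4, 12.3 and 91.8 in PBS libraries (-4.29 ± 0.89; adjusted p = 0.00325). In these 3 genes no ketone library reached the lowest PBS library.

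The large kinetochore protein Cenpf also separated the groups, at 3.71 ± 5.12 in ketone and 47.4 ± 15.3 in PBS libraries (SD, n = 4 each; -4.07 ± 0.86; adjusted p = 0.00374), with a change of -4.77 without ketone library 1. Birc5 (survivin), the passenger subunit that docks Aurkb on centromeres, averaged 10.7 ± 7.91 in ketone and 58.8 ± 34.5 in PBS libraries, and its groups overlapped at PBS library 3. Its change of -2.31 ± 0.75 (adjusted p = 0.0365) was -2.99 without PBS library 3. The call was lost without PBS library 1 (0.109), 2 (0.116) or 4 (0.131), without ketone library 3 (0.0707) or 4 (0.0896), and with no filter (0.0623). Cenpa, the histone variant that marks centromeres, stood at 103, 6.44, 48.8 and 82.2 in ketone libraries and 89.6, 106, 48.2 and 146 in PBS libraries. These ranges overlapped widely (interval -2.57 to 0.34; adjusted p = 0.248). Ndc80, the partner of Nuf2, averaged 5.31 ± 3.45 in ketone and 19.1 ± 17.7 in PBS libraries, and Knl1, the scaffold that Bub proteins bind, 11.2 ± 4.99 in ketone and 29.3 ± 22.3 in PBS libraries; neither passed (adjusted p = 0.332 and 0.793). The kinetochore motor Cenpe averaged 39.5 ± 26.4 in ketone and 29.9 ± 5.41 in PBS libraries (interval -0.93 to 1.26; adjusted p = 0.838).

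**Figure D3:**
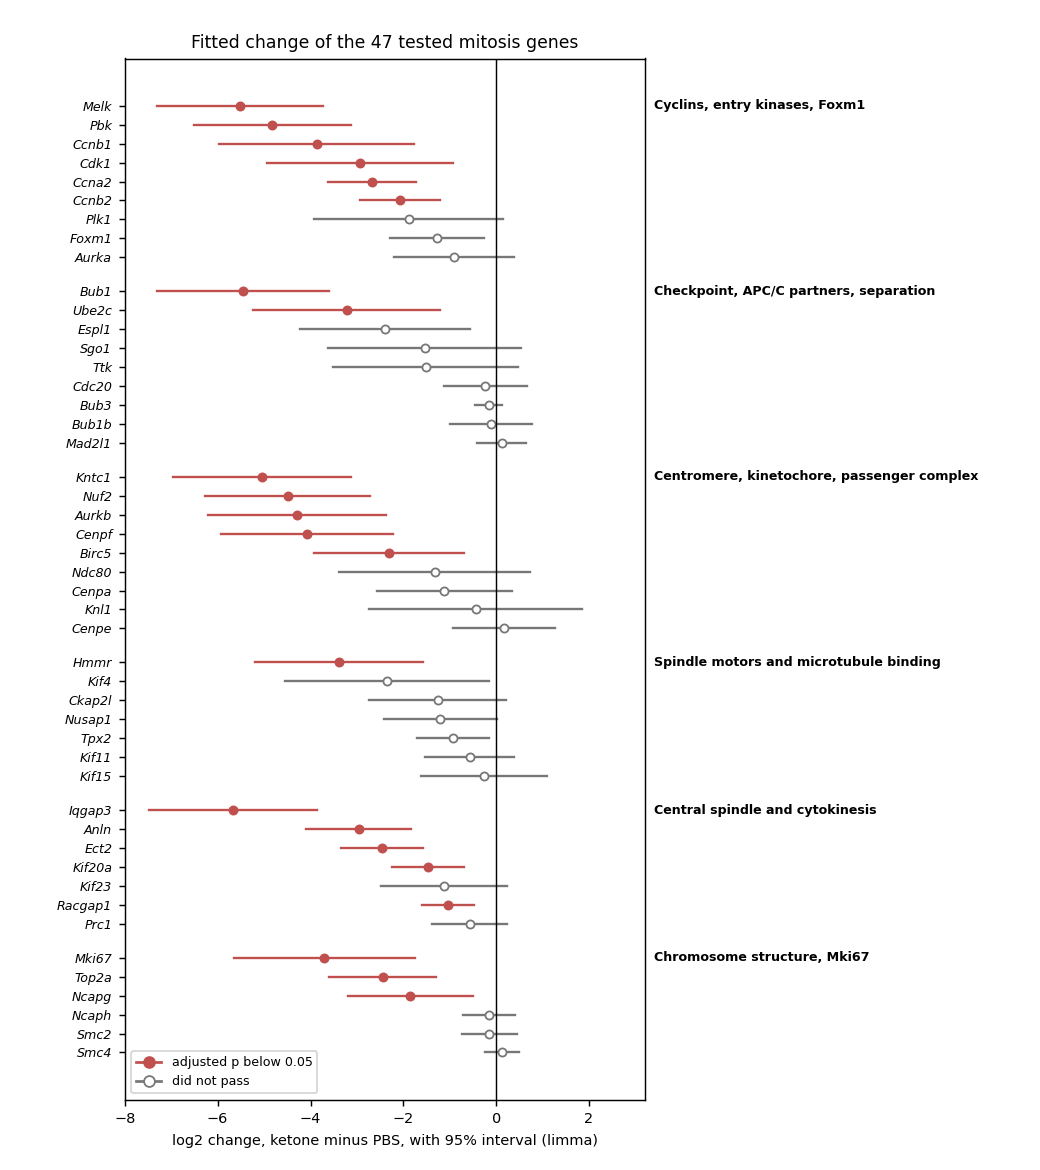
Fitted log2 change, ketone minus PBS, of the 47 tested mitosis genes with its 95% interval (limma), grouped by role; filled red points passed an adjusted p below 0.05. The 22 filled points all lie below 0, between -1.04 and -5.66, and the open points of Bub3, Mad2l1, Ncaph, Smc2 and Smc4 sit near 0 with short intervals.

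Among motors and microtubule-binding proteins of the spindle the fewest genes fell, about the 12.8% of all genes tested called lower. In this role 1 of 7 tested fell (median -1.20). That gene was Hmmr, which organises spindle poles (chromosome 11, 40701395 to 40733422, minus strand), with 0.638, 0, 8.96 and 8.02 normalised counts in ketone libraries and 34.9, 26.3, 32.8 and 52.9 in PBS libraries. All its ketone libraries were below all PBS libraries (-3.39 ± 0.84; adjusted p = 0.00973), and the change was -2.79 without ketone library 2. Tpx2, which activates Aurora A and nucleates spindle microtubules, stood at 47.9, 32.2, 91.6 and 50.1 in ketone libraries and 103, 87.2, 75.9 and 142 in PBS libraries, and ketone library 3 lay inside the PBS range. Its interval was -1.71 to -0.15 (adjusted p = 0.0749; 0.0231 without ketone library 3 and 0.0248 with quantile normalisation). The chromokinesin Kif4 had 4.47, 1.07, 0 and 24.1 in ketone libraries and 24.2, 22.1, 6.16 and 45.9 in PBS libraries (adjusted p = 0.108; 0.0299 without ketone library 4, its highest). It shares 15.1% of its exon bases with Pdzd11 and has an annotated pseudogene.

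Kif11, the motor that pushes spindle poles apart, averaged 55.8 ± 20.6 in ketone and 87.9 ± 42.1 in PBS libraries (interval -1.53 to 0.38; adjusted p = 0.37). Kif15, which can stand in for Kif11, averaged 26.5 ± 18.6 in ketone and 28.9 ± 14.3 in PBS libraries (interval -1.62 to 1.08). The microtubule bundler Nusap1 averaged 18.3 ± 13.7 in ketone and 39.97 ± 17.2 in PBS libraries (adjusted p = 0.134; 0.0378 without ketone library 1, 0.0248 with library weights and 0.0358 with quantile normalisation). The spindle protein Ckap2l averaged 19.8 ± 10.5 in ketone and 65.6 ± 54.4 in PBS libraries (adjusted p = 0.196; 0.0343 without PBS library 3 and 0.0368 in DESeq2). None of these 4 passed in the limma fit described here, and the intervals of Nusap1 and Ckap2l run below -2. Troap, a spindle pole protein below the filter, had no read in ketone libraries and 6.27, 7.35, 13.3 and 22.3 in PBS libraries, 43 reads, at least 4.42-fold lower at the floor of 3 reads per library.

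Of 7 genes of the central spindle and cytokinesis, 5 fell, and in each of the 5 every ketone library lay below every PBS library. Iqgap3, a scaffold protein of proliferating cells (chromosome 3, 88081971 to 88121048, plus strand), had no read in ketone libraries and 73.5, 30.5, 24.6 and 109 normalised counts in PBS libraries, 213 reads, so it was at least 21.3-fold lower at the floor (adjusted p = 0.000307). Ect2, the exchange factor that activates RhoA at the cell equator (chromosome 3, 27097222 to 27153878, minus strand), stood at 10.2, 19.3, 23.9 and 16 in ketone libraries and 85.1, 108, 62.6 and 147 in PBS libraries. The highest ketone value, 23.9, was under the lowest PBS value, 62.6 (-2.46 ± 0.41; adjusted p = 0.000766). Anillin (Anln), the scaffold of the contractile ring (chromosome 9, 22332012 to 22389188, minus strand), had 16, 5.37, 21.9 and 33.1 in ketone libraries and 154, 155, 62.6 and 199 in PBS libraries (-2.96 ± 0.53; adjusted p = 0.00114). Racgap1, a subunit of centralspindlin (chromosome 15, 99620496 to 99651656, minus strand), stood at 115, 104, 122 and 126 in ketone libraries and 251, 257, 152 and 346 in PBS libraries. Its change was the smallest of the 22, -1.04 ± 0.26 (adjusted p = 0.0103), with ketone libraries that differed from each other by less than PBS libraries did (SD 9.75 and 79.5).

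The motor Kif20a, which carries the passenger complex to the central spindle, averaged 29.8 ± 6.48 in ketone and 84.9 ± 23.1 in PBS libraries (-1.46 ± 0.36; adjusted p = 0.00905). It shares 29.3% of its exon bases with Cdc23 on the other strand, and Cdc23 was lower too, at 863 in ketone and 1385 in PBS libraries (adjusted p = 0.0178). Kif23, the motor of centralspindlin that pairs with Racgap1, averaged 37.2 ± 27.7 in ketone and 75.5 ± 60.3 in PBS libraries and did not pass (adjusted p = 0.211). The bundler Prc1, which builds the central spindle, had 95.7, 224, 89.6 and 70.2 in ketone libraries and 169, 201, 89.3 and 221 in PBS libraries (adjusted p = 0.288; 0.0337 without ketone libraries 1 and 2). Ketone library 2 held its highest value of all 8.

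Of the genes for chromosome structure and the proliferation marker, 3 of 6 fell, with a median of -1.003. Mki67, the Ki-67 protein that coats mitotic chromosomes and marks cycling cells (chromosome 7, 135689784 to 135716361, minus strand), had 13.4, 45.1, 11 and 0 normalised counts in ketone libraries and 170.2, 112, 51.3 and 223 in PBS libraries, 74 against 507 reads. No ketone library reached the lowest PBS value, and the change was -3.70 ± 0.90 (adjusted p = 0.00877), -4.46 without ketone library 2 and -2.62 without ketone library 4. Top2a, the topoisomerase that untangles sister chromatids (chromosome 11, 98992943 to 99024189, minus strand), stood at 58.1, 49.4, 7.96 and 26.1 in ketone libraries and 175, 137, 94.4 and 275 in PBS libraries, again without overlap (-2.45 ± 0.54; adjusted p = 0.00468). Ncapg, a subunit of condensin I, had 24.9, 15, 6.97 and 7.02 in ketone libraries and 74.4, 47.3, 14.4 and 79.3 in PBS libraries, and PBS library 3 lay inside the ketone range. Its change of -1.85 ± 0.63 (adjusted p = 0.0441) lost its call without PBS library 1 (0.152), 2 (0.101) or 4 (0.151), without ketone library 3 (0.0859) or 4 (0.0957), and in fits of all libraries with equal totals (0.0597) or no filter (0.0761).

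The other condensin genes among the 49 had narrow intervals around 0. Smc4, a core subunit of both condensins, stood at 1043, 1137, 1064 and 906 in ketone libraries and 863, 745, 1129.7 and 1117 in PBS libraries (interval -0.25 to 0.49; adjusted p = 0.633). Its partner Smc2 averaged 181 ± 18.3 in ketone and 214 ± 98.9 in PBS libraries (interval -0.74 to 0.44). Ncaph, another subunit of condensin I, averaged 144 ± 27.3 in ketone and 162 ± 39.9 in PBS libraries (interval -0.72 to 0.41). With Bub3, Mad2l1 and Bub1b these are the 6 genes whose whole interval lay within 1 of 0 on the log2 scale. Of the other 19 that did not pass, 18 had an interval reaching below -1, so a fall by 1 was within what this depth and spread allow.

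Levels of different genes were compared per kilobase of exon. The 2 highest in both groups were Smc4, at 199 ± 18.5 normalised counts per kilobase in ketone and 185 ± 36.6 in PBS libraries (SD, n = 4 each), and Bub3, at 190.5 ± 11.96 in ketone and 214 ± 17.7 in PBS libraries. Next in PBS libraries came Ccnb2, at 19.5 ± 6.03 in ketone and 87.6 ± 39.4 in PBS libraries. Ccna2 followed at 6.44 ± 3.45 in ketone and 41.7 ± 17.5 in PBS libraries. Next in ketone libraries came instead Ncaph, at 33.3 ± 6.35 in ketone and 37.5 ± 9.26 in PBS libraries, and Smc2, at 33.0 ± 3.34 in ketone and 39.0 ± 18.1 in PBS libraries. Pbk, at 1.45 ± 1.76 in ketone and 40.9 ± 15.9 in PBS libraries, was just under Ccna2 in PBS libraries, where the levels of Ccna2, Pbk, Smc2 and Ncaph lay within their spread of each other.

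The 4 PBS libraries differed from each other over these genes in 1 direction. PBS library 4 held the highest of the 4 PBS values in 40 of 49 genes (81.6%, against 23.5% of all genes tested). PBS library 3 held the lowest in 39 (79.6%, against 24.1%). PBS library 4 exceeded PBS library 3 in 47 of 49 genes, by a median of 1.54 on the log2 scale, whereas over all genes tested it was higher in 48.3%, with a median of -0.01. Summed over the genes other than Bub3 and Smc4, the level was 1764, 1347, 1515 and 1553 normalised counts in ketone libraries 1 to 4, and 3677, 3430, 2039 and 5600 in PBS libraries 1 to 4. Every ketone sum was thus below every PBS sum, and PBS library 3 was the nearest to the ketone libraries. Among the ketone libraries, library 1 held the highest of the 4 ketone values in 18 genes (36.7%, against 28.9% of all genes tested). Ketone library 2 held the lowest in 16 (32.7%, against 28.5%). These shares lay nearer to those over all genes tested than the shares of PBS libraries 3 and 4 did. Ketone library 1 had 5 of the 49 genes at 0, library 2 had 16, and libraries 3 and 4 had 9 each.

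**Figure D4:**
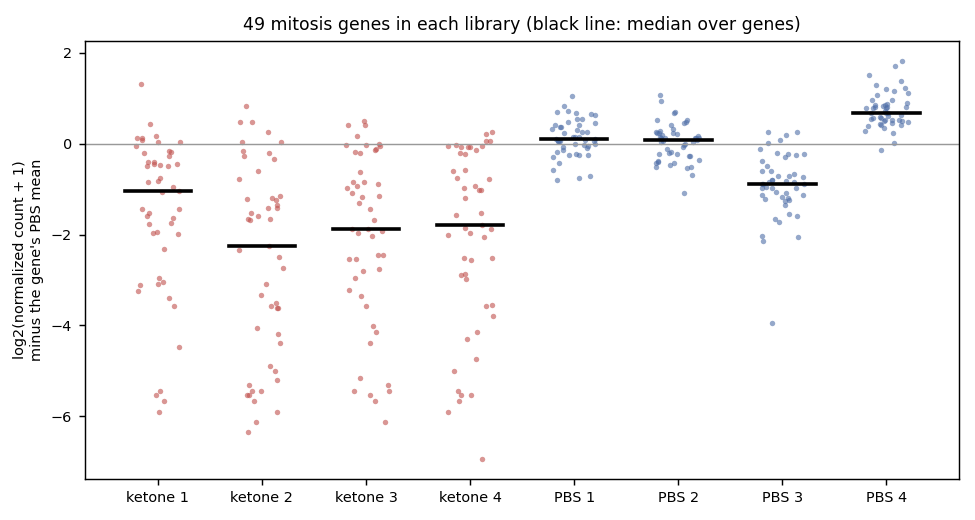
Each point is 1 of the 49 mitosis genes in 1 library (y axis, log2 of the normalised count plus 1 minus the mean of that gene over the PBS libraries), with ketone libraries on the left and PBS libraries on the right, and the black line is the median over genes. The medians are -1.04, -2.26, -1.87 and -1.78 in ketone libraries 1 to 4, and 0.10, 0.09, -0.88 and 0.69 in PBS libraries 1 to 4.

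Further genes of mitosis outside the 49 moved in both directions. The list held 133 names for 131 genes, of which 126 were tested. Of these, 22 were lower (17.5%) and 8 were higher (6.35%), against 12.8% in each direction over all genes tested. The median change was -0.12. The count of 22 lower was 7 without PBS library 1, 11 without PBS library 3 and 9 without PBS library 4. Of 18 genes of the anaphase-promoting complex and its regulators, 6 were lower (33.3%) and 3 were higher (16.7%). The subunit Anapc16 averaged 2943 ± 444 in ketone and 1624 ± 108 in PBS libraries (log2 change 0.85; adjusted p = 0.000999). Anapc7 averaged 652 ± 53 in ketone and 1122 ± 66.1 in PBS libraries (-0.78; adjusted p = 0.00151). Of 34 tested kinetochore and passenger genes 4 were lower (11.8%, about the share of all genes tested) and 1 was higher. The smallest p of these belonged to Spc24, a subunit of the Ndc80 complex with Nuf2, at 7.39 ± 8.79 in ketone and 106 ± 32.4 in PBS libraries (-4.13; adjusted p = 0.000349). The checkpoint gene Mad1l1 averaged 374 ± 28.1 in ketone and 711 ± 76 in PBS libraries (-0.92; adjusted p = 0.00103).

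Of 29 tested spindle and cytokinesis genes 9 were lower (31%) and 1 was higher (3.45%), against 12.8% of all genes tested in each direction. Of 8 subunits of augmin, a complex that branches spindle microtubules, 2 were lower (25%), 1 was higher (12.5%) and 5 did not pass. Haus7 averaged 189 ± 46.7 in ketone and 468 ± 104 in PBS libraries (-1.32; adjusted p = 0.00149) and Haus2 1001 ± 103 in ketone and 640.4 ± 80.5 in PBS libraries (0.65; adjusted p = 0.00869). Among 12 cohesin genes 1 was lower (8.33%, under the share of all genes tested). It was sororin (Cdca5), which holds sister chromatids together, at 1.91 ± 3.83 in ketone and 24 ± 14.4 in PBS libraries (-3.70, adjusted p = 0.0162). The cohesin acetyltransferase Esco2 averaged 19 ± 6.59 in ketone and 39.4 ± 7.14 in PBS libraries without passing (adjusted p = 0.0982). Of 4 other condensin subunits 2 were lower (50%), both with overlapping groups. Ncapg2 averaged 434 ± 114 in ketone and 661 ± 67.5 in PBS libraries (adjusted p = 0.0278). Ncapd3 averaged 579 ± 145 in ketone and 843 ± 116 in PBS libraries (adjusted p = 0.046). Of 12 genes listed as other entry regulators 0 were lower and 1 was higher (8.33%, under the share of all genes tested). It was Lockd, at 127 ± 53.1 in ketone and 30.9 ± 10.2 in PBS libraries (adjusted p = 0.00149). Lockd is a noncoding RNA, and nothing here shows that it acts on entry into mitosis. Cyclin F (Ccnf) averaged 31.3 ± 13.3 in ketone and 61.8 ± 9.07 in PBS libraries without passing (adjusted p = 0.0704). The last list held genes of the MuvB, DREAM and MYB complexes and of NF-Y, and Dyrk1a, and concerned promoters of the kind shown above. Of its 17 genes, 0 were lower and 2 were higher (11.8%), about the share of all genes tested. B-Myb (Mybl2) averaged 10.2 ± 6.56 in ketone and 35.0 ± 27.5 in PBS libraries with overlapping groups and did not pass (-1.59; adjusted p = 0.0976). Lin52, a subunit of MuvB, averaged 1162 ± 272 in ketone and 619.9 ± 60.1 in PBS libraries (0.88; adjusted p = 0.0033). The E2F partner Tfdp2 averaged 4863 ± 1932 in ketone and 2203 ± 402 in PBS libraries with overlapping groups (1.06; adjusted p = 0.00756).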

How the data were processed

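RNA from sorted muscle stem cells was sequenced in 4 ketone and 4 PBS libraries, after oligo(dT) priming and amplification with a low-input kit, per the labels' protocols, so PCR copies count as reads. The submitters' processing notes name Trim Galore, STAR, featureCounts, Subread, DESeq2 and the build mm10; the sources used here give no versions, settings or use of strand, and 14 of the 49 genes share annotated exon bases with another gene. The authors deposited a signal per gene, read counts divided by 1 factor per library: every value (100%) was a whole number of reads times that factor, with a tolerance of 0.001, which gave back the reads. Of 25239 rows, 2 with a date as symbol were left out, and 6219 genes were at 0 throughout.

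Because the values are normalised, log2(value + 1) was fitted with limma 3.58.1 in R 4.3.3 (trend, no covariate) for the 14022 genes with a mean of at least 10; two-sided p-values were adjusted over all of them by Benjamini and Hochberg, with 0.05 as threshold, and every adjusted p printed is limma's unless another tool is named. Changes are ketone minus PBS in log2(value + 1), a scale that shrinks the change of low genes; intervals come from the spread between libraries, and floors (3 reads per library) cover counting error only. edgeR 4.0.16 and DESeq2 1.42.0 on recovered reads were alternatives, and scripts were tested on simulated data. Gene positions and exon lengths are from GENCODE on the same build (GRCm38, mm10), promoters from RefSeq (GRCm38.p6).

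The 49 genes, their roles and the other lists were chosen with earlier results of these data known. Given in every library were, per role, the 3 genes with the smallest p and the one with the highest mean, genes at 0 in a whole group, and Mki67, Top2a, Cdk1, Ccnb1, Bub1 and Foxm1; Ccnb2 and Prc1 were added after their values were seen. Of the other mitosis genes, the 2 with the smallest p per list are named, and B-Myb (Mybl2) was added after its values were seen.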

Additional observations from a re-analysis of the deposited data

Results flagged for a closer look

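In groups of 4 libraries, 9 of 94 sets of values over the 47 tested genes (9.57%) had 1 library far from the other 3 by Dixon's test. The nominal rate of 5%, or 4.7 sets, holds for independent normal values. These are low counts of genes that move together, so that rate is no measure of chance here. Sets at 0 throughout, those of Bub1, Melk and Iqgap3 in ketone libraries, could not be flagged. Ketone library 1 stood high for Ccnb1, at 10.8 normalised counts against 0 to 0.996 in the other ketone libraries, and for Ube2c, at 24.2 against 0 to 3.22. Ketone library 2 stood high for Prc1, at 224 against 70.2 to 95.7, and for Ckap2l, at 35.4 against 12.8 to 15.9, and low for Ncaph, at 103 against 153 to 163. Ketone library 3 was the only ketone library with reads for Kntc1, at 9.96 normalised counts. PBS library 4 stood high for Kif23, at 166 against 38.0 to 51.1 in the other PBS libraries, and for Smc2, at 362 against 154 to 171. PBS library 3 stood low for Sgo1 (Sgol1), at 6.16 against 19.7 to 22.1.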

How the results depend on the processing

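With 22 of the mitosis genes lower, the number ran from 20 to 26 over the other scalings, tools, pseudocounts and the fit without a filter (20 in edgeR, 25 in DESeq2), from 17 to 24 with 1 library left out, and was 9 when a mean of 50 was required, which leaves 22 genes to test; 0 were higher in each. Of the 22 genes, 17 kept the call in each of the 21 alternative fits that tested them, and no called gene changed sign; 7 genes that did not pass did so in at least 1 alternative. Of the other mitosis genes, lower ones (22 with all libraries) numbered 7 to 24 with 1 library left out and 7 at an adjusted p below 0.01. All genes lower numbered 1083 to 2123 with 1 library left out and 911 at 0.01, and all genes higher 1271 to 1953 and 1001. Changes that turned sign belonged to genes that did not pass. With 1 library left out, the log2 change ran from -0.50 to 0.0061 for Cdc20, -0.41 to 0.29 for Bub1b, -0.22 to 0.56 for Cenpe, -0.65 to 0.17 for Kif15, -1.76 to 0.17 for Knl1 and -0.27 to 0.13 for Smc2. Cdc20 was at 0.0498 with library weights and 0.0842 without ketone libraries 1 and 2, Cenpe at -0.28, at -0.58 and, with quantile normalisation, at -0.29, and Mad2l1 at -0.15 with quantile normalisation. The cause was not tested. Same-numbered ketone and PBS libraries correlated at 0.11, -0.01, 0.003 and -0.06, and not every library correlated best with its own number, so the numbers were not taken to pair the libraries; with the replicate block 23 mitosis genes, 23 of the other mitosis genes and 1814 of all genes were lower, and Foxm1 passed (adjusted p = 0.0242). Depth limits the low genes: 10 of the 49 were at 0 in 2 or more ketone libraries.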
